A study of Mus musculus with 9 samples.

Results

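The VEGF, angiopoietin and apelin axis was followed through 10 genes chosen by symbol: the ligands Vegfa, Angpt2 and Apln, the receptors and co-receptor Flt1, Kdr, Nrp1, Tek, Tie1 and Aplnr, and the secreted endothelial proteoglycan Esm1. They were 10 of the 33273 gene symbols listed in at least 1 of 9 samples, and 8 of them were listed in every sample. Aplnr was not listed in the normal brain and Esm1 was not listed in T233, and both were treated there as missing rather than as 0. The table of T233 lists no symbol with 0 UMIs, so that Esm1 may have had 0 UMIs there.

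The samples were mouse cells from brains of nude mice, profiled by Drop-seq, which counts unique molecular identifiers (UMIs) per gene and cell. Patient-derived orthotopic xenografts (PDOXs) carried implanted human glioblastoma organoids, so that the mouse cells made up the tumor microenvironment (TME). There were 7 untreated PDOXs, 1 sample each: P3, T16 and P13, which the study describes as more angiogenic, and the remaining PDOXs P8, T101, T192 and T233, set beside them as more invasive, of which T233 is not named singly as invasive. The study also calls the growth of P3 intermediate, and T192 and T233 came from the same patient. The other 2 samples were 1 normal nude mouse brain without tumor (Nu-NB) and 1 temozolomide-treated P3 PDOX (P3TMZ). The drug was given by oral gavage and control mice of that experiment received vehicle, while the label of P3 says untreated. Cells of Nu-NB and P8 were purified by fluorescence-activated sorting (FACS) and those of the other 7 samples by magnetic depletion of human cells (MACS), so that P8 was the only PDOX sorted as the normal brain was. Each tumor line was 1 xenograft sample. The temozolomide comparison used 1 mouse per condition, and whether the other samples held 1 or more brains was not given in the sources used here.

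After filters, 14622 cells were kept, 722 to 2770 per sample. The median depth was 521 to 1303 UMIs per cell, and no pair of samples shared more than 11 barcodes. Cells were classed by markers as endothelial-like, mural-like (pericytes and smooth muscle), fibroblast-like, myeloid-like, astrocyte-like or OPC-like (oligodendrocyte precursors). Clusters of choroid plexus, ciliated ependymal, neuronal, cycling and B cells were also named, but levels in them were not ranked. All 12 endothelial markers, among them Cldn5, Pecam1 and Cdh5, were detected in the endothelial-like cells of every sample. T101 stood apart in that 982 of its 1498 cells stayed unnamed. Before doublets were left out, an unnamed cluster led by Rab3ip, Cnot2 and Cand1 had 663 of its 723 cells in T101. Another, led by Hist1h4c and Gm17511 and mostly unnamed, had 1045 cells. Neither had a cell in Nu-NB or P8, the samples sorted by FACS. Whether all of these were mouse cells was not tested, and they stayed in the sums over all cells. Levels are given as CPM, the UMIs of a gene scaled to a common total for that class in that sample, and intervals and detection limits (3 UMIs) cover counting error only.

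In vessel growth, VEGF-A secreted by hypoxic tissue signals through Kdr (VEGFR2), while Flt1 (VEGFR1) binds the same ligand with high affinity and acts largely as a decoy in endothelium, and Nrp1 is a co-receptor for VEGF-A and semaphorins. Angiopoietin-2, released by endothelial cells of remodeling vessels, acts on the receptor Tek (TIE2), to which Tie1 is an orphan partner. Apelin, a peptide of sprouting tip cells, signals through the G-protein-coupled receptor Aplnr, and Esm1 (endocan) is another tip cell product.

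The bases upstream of 3 of the genes on which the results below turn are shown for orientation: Apln, a ligand whose endothelial level ran from 0 to 375 CPM among PDOXs, Tek, the receptor lower in every angiogenic PDOX than in every invasive one, and Flt1, the receptor that was also found in myeloid-like cells. Each stretch holds the 250 bases before the start of the gene in RefSeq (GRCm38.p6), read 5′ to 3′ on the strand of the gene. Capitals mark GGAAG or its reverse complement CTTCC, a word that contains the core bound by ETS factors, a family with many endothelial members.
Apln, chrX:48034854-48035103, minus strand: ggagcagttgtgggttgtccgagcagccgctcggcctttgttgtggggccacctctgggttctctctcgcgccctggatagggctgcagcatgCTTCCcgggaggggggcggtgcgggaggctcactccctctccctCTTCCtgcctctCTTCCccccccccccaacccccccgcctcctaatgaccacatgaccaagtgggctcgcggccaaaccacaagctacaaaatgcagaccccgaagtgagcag
Tek, chr4:94739039-94739288, plus strand: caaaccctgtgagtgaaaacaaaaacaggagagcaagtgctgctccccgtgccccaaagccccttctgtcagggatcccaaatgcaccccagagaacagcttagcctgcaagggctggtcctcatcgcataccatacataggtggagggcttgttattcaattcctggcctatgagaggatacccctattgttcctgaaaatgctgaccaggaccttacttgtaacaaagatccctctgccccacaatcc
Flt1, chr5:147726012-147726261, minus strand: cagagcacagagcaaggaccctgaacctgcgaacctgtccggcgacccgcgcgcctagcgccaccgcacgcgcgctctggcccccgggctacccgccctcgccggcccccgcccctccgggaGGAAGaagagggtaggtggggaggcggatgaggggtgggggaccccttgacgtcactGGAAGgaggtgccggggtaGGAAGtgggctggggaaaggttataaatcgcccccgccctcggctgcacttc
The word occurred 3 times before Apln and before Flt1 and was not found before Tek. Of all 32851 RefSeq windows of this length, 64.1% held it, and of the 9 windows of the 8 genes found in the RefSeq table (Vegfa has 2 starts) 7 did. Angpt2 and Aplnr had no entry.

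Over the 6 classes ranked, 9 of the 10 genes had their highest mean level over the untreated PDOXs in endothelial-like cells, and Vegfa had it in astrocyte-like cells. Mean ± SD levels in endothelial-like cells were 2619 ± 882 CPM for Flt1, 640 ± 246 CPM for Kdr, 512 ± 225 CPM for Nrp1 and 405 ± 173 CPM for Tek (n = 7 PDOXs). Apln reached 214 ± 170 CPM, Angpt2 142 ± 98.9 CPM, Tie1 117 ± 47.1 CPM and Aplnr 61.9 ± 52.7 CPM (n = 7), and Esm1 55.1 ± 69.3 CPM (n = 6), or 47.2 ± 66.6 CPM with T233 taken as 0 (n = 7). Relative to the mean, the SD was larger for Apln, Angpt2, Aplnr and Esm1 than for the receptors Flt1, Kdr, Tek and Tie1. Tek, Kdr, Tie1, Aplnr and Esm1 were low in the rest of the 6 classes. The next class held a mean of 13.9 CPM of Tek, 17.9 CPM of Kdr, 6.79 CPM of Tie1, 0.934 CPM of Aplnr and 0.547 CPM of Esm1. Counted in UMIs the class held less of them where myeloid-like cells were many, since these held 15.7%, 20.8% and 18.9% of all Kdr UMIs in P8, T192 and T233, 17.4% of those of Tek in T233 and 2 of 6 Aplnr UMIs in T192. Nrp1 and Flt1 were spread more widely. Nrp1 had a mean of 262 ± 107 CPM in myeloid-like and 219 ± 78.5 CPM in mural-like cells, which did not differ beyond their spread, and Flt1 had 257 ± 93.0 CPM in mural-like cells. All 11 mural markers were detected in the mural-like cells of every PDOX, but markers of myeloid cells summed to more than those of mural cells in T192 (31757 against 6405 CPM), T233 (35952 against 3202 CPM) and P3 (39659 against 7822 CPM). In P8, T101, T16 and P13 the mural sum was the larger, at 14143 to 28447 CPM. The part of myeloid RNA in the mural-like levels of Nrp1 and Flt1 was not tested. Vegfa ran in another order, with 307 ± 232 CPM in astrocyte-like cells (n = 6), 154 ± 217 CPM in fibroblast-like cells (n = 3) and 121 ± 121 CPM in OPC-like cells (n = 6), which overlapped, and with at most 11.0 CPM in the endothelial-like cells of any PDOX. The 6 classes held 510 of 535 Vegfa UMIs in P8 but 248 of 495 in P13, 14 of 66 in T101 and 4 of 22 in P3. In P13, T101 and P3 much of it therefore lay outside the ranking, in cells of other named classes or of none. Myeloid markers summed to more than OPC markers in the OPC-like cells of T192, T233 and T16 (8348 to 9950 against 5191 to 7493 CPM).

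**Figure D1:**
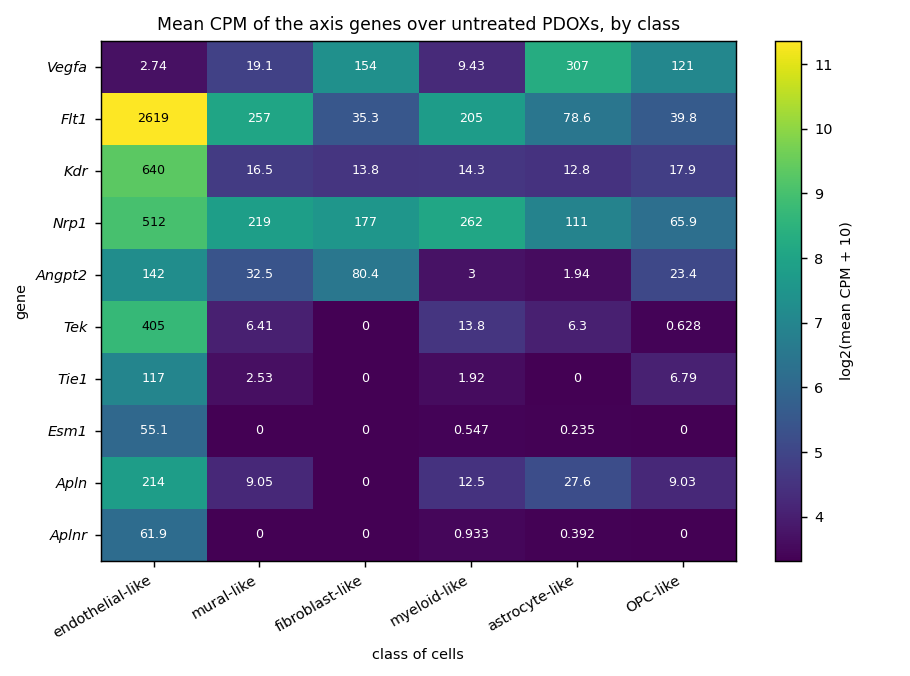
Mean level of each of the 10 genes (rows) by cell class (columns) over the untreated PDOXs, printed in CPM and colored by log2(mean CPM + 10). Over these 6 classes, 9 genes have their highest mean in endothelial-like cells and Vegfa has its highest in astrocyte-like cells, at 307 CPM.

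The first comparison asked which genes of the axis differed between the endothelial-like cells of angiogenic and invasive PDOXs. Of the 8 genes that could be tested, 1 passed the test, the apelin receptor Aplnr, which was higher in the angiogenic PDOXs. Aplnr passed the filter on low counts (48.6 CPM in at least 3 PDOXs) only through that group, since no invasive PDOX reached this level, so that it had to differ to be tested, as did 31 of the genes tested (0.75%). Of all 4134 genes tested, 47 passed (1.14%), 23 higher and 24 lower. That number fell to 2 without P3 or without T16, 3 without T233, 15 without P8, 16 without P13, 20 without T101, 35 without T192 and 4 with T192 and T233 summed. Tests were edgeR quasi-likelihood fits on UMIs summed per sample, 3 angiogenic against 4 invasive PDOXs, called at a Benjamini-Hochberg adjusted p of at most 0.05. Over the 8 genes the median log2 difference was 0.42, beside -0.02 over all genes tested. It is a description only, since the 8 include Aplnr, which had to differ to be tested.

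For the apelin pair, Aplnr stood at 165 CPM in P3, 81.5 CPM in T16 and 81.3 CPM in P13, against 26.8 CPM in P8, 27.2 CPM in T101, 17.9 CPM in T192 and 33.1 CPM in T233. The 2 groups did not overlap, as was the case with angiogenic above invasive for 6.7% of all genes tested. The fitted log2 difference was 2.02 ± 0.45 (SE; edgeR adjusted p = 0.0465), and DESeq2, which called 3.34% of genes, gave 2.06 (DESeq2 adjusted p = 0.0163). The edgeR call rested on 3 or 4 UMIs of Aplnr in each invasive PDOX and did not survive leaving out any 1 of the 7 PDOXs, P8, T101, T192, T233, P3, T16 or P13 (edgeR adjusted p = 0.0652 to 0.161, log2 difference 1.67 to 2.23), nor treating T192 and T233 as 1 sample (edgeR adjusted p = 0.0695).

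Apln, the ligand, stood at 321 CPM in P3, 375 CPM in T16 and 357 CPM in P13. Among the invasive PDOXs it stood at 339 CPM in P8, 67.9 CPM in T101 and 35.8 CPM in T192, and had 0 UMIs in T233, where the detection limit was 33.1 CPM. The invasive PDOX P8 was therefore within the angiogenic range and the other 3 invasive PDOXs were far under it. With P8 in the fit the log2 difference of 1.72 ± 0.62 missed the threshold (edgeR adjusted p = 0.193). Without P8, that is among PDOXs purified by MACS alone, it was 3.15 and passed (edgeR adjusted p = 0.0240), as 0.337% of the 4448 genes then tested did. Whether the sort or the tumor set P8 apart cannot be told apart, since P8 was the only PDOX sorted by FACS.

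Angpt2 stood at 243 CPM in P3, 178 CPM in T16 and 195 CPM in P13, against 250.1 CPM in P8, 88.3 CPM in T101, 17.9 CPM in T192 and 22.0 CPM in T233. P8 was the highest of all 7 and the other 3 invasive PDOXs were under every angiogenic one. The log2 difference was 1.17 ± 0.56 with P8 (edgeR adjusted p = 0.361) 2.20 without it (edgeR adjusted p = 0.0711) and 0.69 without T192 (edgeR adjusted p = 0.571), so it missed the threshold each time. With no filter on low counts, Apln and Angpt2 passed the threshold with P8 included (edgeR adjusted p = 1.91e-05 and 0.0166), where 2.78% of 12641 genes did.

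Esm1 could not be fitted because it was not listed in T233, and without T233 it did not pass the filter on low counts. It stood at 194 CPM in P13 (267 UMIs), 48.6 CPM in P3 and 27.7 CPM in T16, and at 26.8 CPM in P8, 6.79 CPM in T101 and 26.8 CPM in T192, the last 3 on 1 to 6 UMIs each. P13 was above all others, and T16 was level with P8 and T192.

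The VEGF receptors did not pass the test. Kdr stood at 803 CPM in P3, 636 CPM in T16 and 662 CPM in P13, and spanned 254 CPM (T233) to 1000.3 CPM (P8) in the invasive PDOXs, with a log2 difference of 0.22 ± 0.36 (edgeR adjusted p = 0.852). Flt1 stood at 1479 CPM in P3, 2473 CPM in T16 and 1851 CPM in P13, against 4028 CPM in P8, 2913 CPM in T101, 3352 CPM in T192 and 2237 CPM in T233, and T16 overlapped with the invasive range. Its log2 difference was -0.72 ± 0.30 (edgeR adjusted p = 0.269). Nrp1 ran from 426 to 547 CPM in the angiogenic and from 298 to 974 CPM in the invasive PDOXs, with a log2 difference of -0.06 ± 0.36 (edgeR adjusted p = 0.964), and P8 was again the highest sample.

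Among the angiopoietin receptors, Tek stood at 136 CPM in P3, 291 CPM in T16 and 351 CPM in P13, against 661 CPM in P8, 516 CPM in T101, 514 CPM in T192 and 364 CPM in T233. The groups did not overlap, as was the case with angiogenic below invasive for 5.64% of all genes tested, but the gap between P13 and T233 was small. The log2 difference of -0.99 ± 0.32 did not pass the test (edgeR adjusted p = 0.137). Tie1, at 103 to 195 CPM in the angiogenic and 47.5 to 134 CPM in the invasive PDOXs, overlapped (log2 difference 0.62 ± 0.35, edgeR adjusted p = 0.453).

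**Figure D2:**
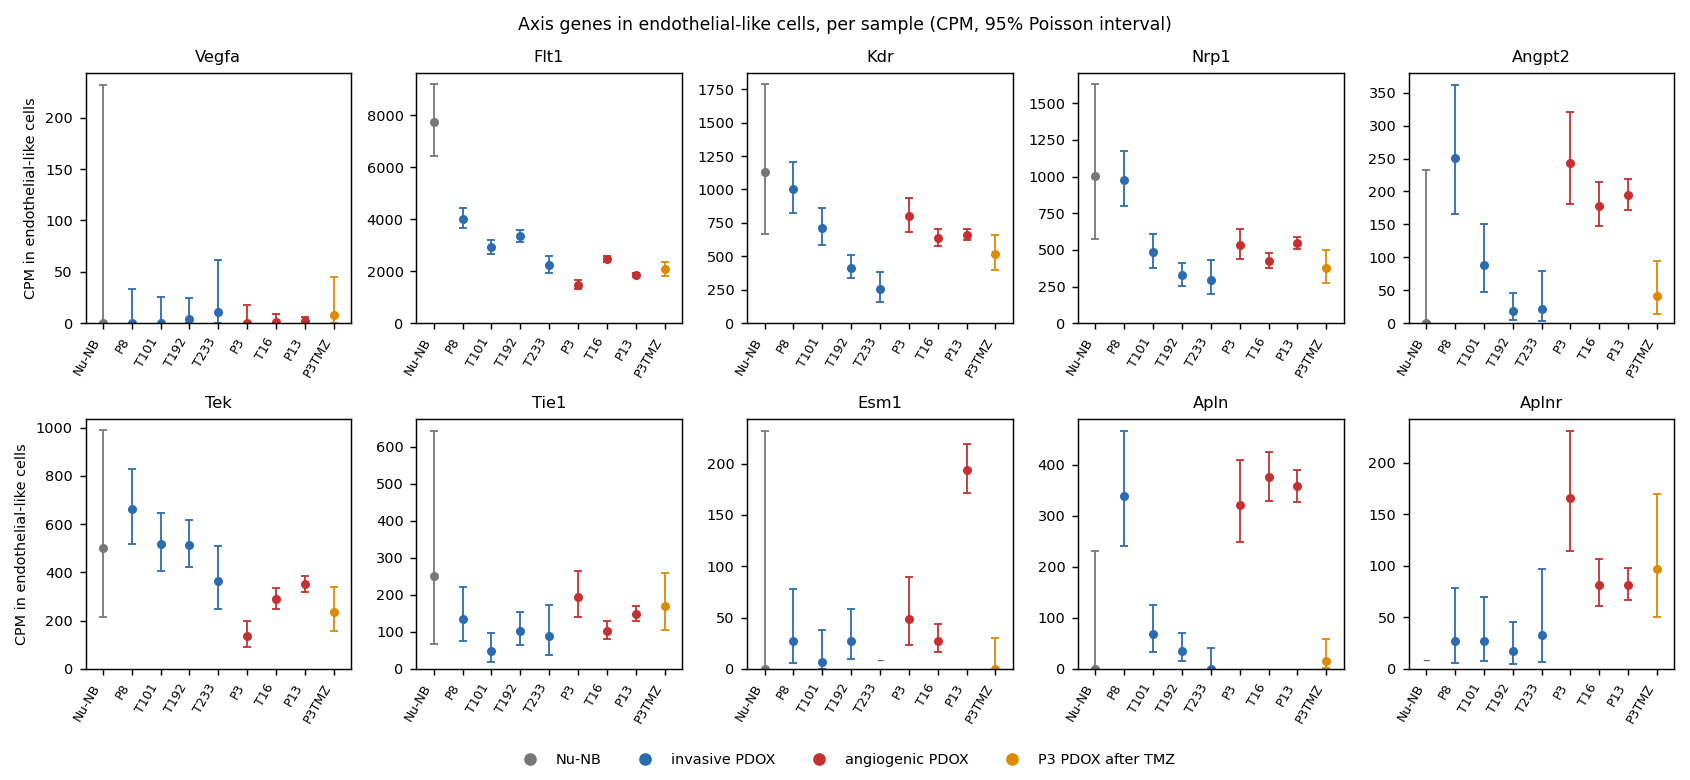
Level of each of the 10 genes in endothelial-like cells by sample, in CPM, with exact Poisson 95% intervals of counting error and a dash where a gene is not listed. Aplnr is higher in all 3 angiogenic PDOXs than in all 4 invasive ones and Tek is lower, while P8 lies within or above the angiogenic range for Apln and Angpt2.

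The summed level of the 12 endothelial markers in endothelial-like cells moved with the grouping too. It was 13727 to 17096 CPM in the angiogenic and 18281 to 26494 CPM in the invasive PDOXs, while mural markers summed to 755 to 2009 CPM and 348 to 1354 CPM. Myeloid markers summed to 314 to 1634 CPM in the angiogenic and 591 to 5819 CPM in the invasive PDOXs. The part of these levels in the differences above was not tested.

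**Figure D3:**
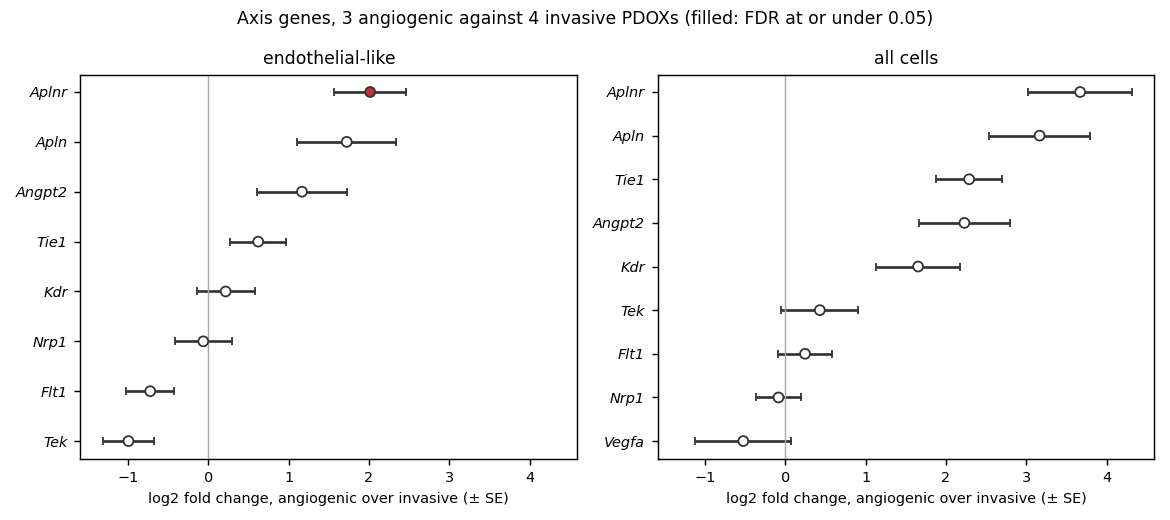
Fitted log2 differences of the tested genes, angiogenic minus invasive PDOXs, with their standard errors, in endothelial-like cells and in all cells, filled where the adjusted p is at most 0.05. In endothelial-like cells Aplnr at 2.02 is the only gene past the threshold, and in all cells no gene passes it.

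The shares of endothelial-like cells with a UMI were compared for Apln, Angpt2 and Esm1. After thinning each endothelial-like cell to 500 UMIs, and leaving out shallower cells, Apln was seen in 10.9% of cells in P3, 11.0% in T16 and 7.20% in P13, against 6.32% in P8, 0.848% in T101, 1.43% in T192 and 0 of 65 cells in T233 (up to 4.62%). The groups did not overlap, and the mean difference of 7.55 percentage points had an exact two-sided permutation p of 0.0571, or 0.129 after Benjamini-Hochberg adjustment over 3 genes, with 0.0286 the smallest p that 35 splits can give. Thinned to 1000 UMIs instead, Apln overlapped between the groups, at a mean difference of 12.7 points (exact permutation p = 0.114, adjusted 0.171). Angpt2 was seen in 10% of cells in P3, 8.52% in T16 and 4.86% in P13, against 5.26% in P8, 1.70% in T101, 0.714% in T192 and 0 of 65 cells in T233, so that P8 lay above P13. Its mean difference was 5.88 points (exact permutation p = 0.0857, adjusted 0.129), and at 1000 UMIs it was 9.36 points, with no overlap (exact permutation p = 0.0571, adjusted 0.171). For Esm1 the shares were 0.909% to 2.34% against 0% to 1.053% (exact permutation p = 0.2, the smallest possible being 0.1), or with T233 taken as 0 a difference of 1.01 points (exact permutation p = 0.0857). As a background, the thinned myeloid-like cells, whose median depth was in the same range, held no UMI of Apln in most samples and at most 1.54% of cells with one (T16). At full depth the mean differences were 13.3 points for Apln and 8.22 points for Angpt2, each with an exact permutation p of 0.0429 after adjustment, and 2.60 points for Esm1, 3.23% against 0.627% with no overlap (exact permutation p = 0.1, the smallest that 3 against 3 samples can give). Depth is not matched in these shares. Endothelial-like cells held 1376900 UMIs over 516 cells in P13, 650688 over 552 in T16 and 205605 over 237 in P3, beside 223748 over 261 in T192, the deepest invasive PDOX by this measure.

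The endothelial-like cells fell into 2 clusters, made without the 10 genes or the listed pathway genes. One was led by Cxcl12, Gkn3 and Ly6c1 and the other by Scgb3a1, Ctla2a and Cd93. The second cluster held 76.4% of the endothelial-like cells in P3, 46.2% in T16 and 34.1% in P13, against 16.6% in P8, 18.2% in T101, 11.9% in T192 and 5.88% in T233, and none of the 34 cells of Nu-NB. These shares are given as a description, since genes that lead the clusters also differ between samples. Its cells were deeper (median 1166 UMIs) than those of the first (646.5 UMIs).

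In the angiogenic PDOXs the tip cell products and Aplnr sat almost wholly in the second cluster. This cluster held 84.2% of all endothelial UMIs in P3, 71.4% in T16 and 71.9% in P13, the baseline for the shares that follow. It held 95.9% to 100% of all endothelial UMIs of Apln, 94.0% to 100% of Angpt2, 99.3% to 100% of Esm1 and 98.1% to 100% of Aplnr. For Kdr it held 83.1% to 92.1%, for Nrp1 80.6% to 92.7% and for Tie1 76.5% to 79.1%, and for the broader genes Tek and Flt1 it held 41.3% to 71.4% and 43.6% to 75.0%. In the invasive PDOXs the cluster held 3.83% (T233) to 30.2% (T192) of endothelial UMIs, and the counts were small. Of Apln it held 34 of 38 UMIs in P8, 7 of 10 in T101 and 7 of 8 in T192, and of Angpt2 22 of 28, 8 of 13 and 2 of 4. Of Aplnr it held 3 of 3, 3 of 4 and 3 of 4, and in T233 it held none of 2 Angpt2 and 3 Aplnr UMIs. Of Esm1 it held none of 3 UMIs in P8 and all of them in T101 and T192 (1 and 6 UMIs). Within this cluster the groups overlapped for Apln and Angpt2. Apln stood at 382 CPM in P3, 504 CPM in T16 and 483 CPM in P13, against 1241 CPM in P8, 190 CPM in T101 and 104 CPM in T192, with too few cells in T233. Aplnr remained higher in the angiogenic PDOXs (112 to 196.5 CPM) than in the invasive ones (44.4 to 109.5 CPM), without overlap, as 6.5% of the genes tested there were. The invasive levels of Aplnr rest on 3 UMIs each, and the gap was small. Tek (116 to 290 CPM against 311 to 487.5 CPM) and Flt1 (1123 to 1755 CPM against 1776 to 2153.5 CPM) were lower without overlap, as 7.42% were, again with small gaps. Fitted on this cluster alone, a choice made after seeing the data, the log2 difference was 0.05 for Apln, -0.13 for Angpt2 and 0.98 for Aplnr, and none of the 3 passed (edgeR adjusted p of Aplnr = 0.791). In the first cluster Apln stayed at or under 53.7 CPM and Angpt2 at or under 70.9 CPM in every PDOX, and 0 of 2473 genes passed the edgeR test (80 had an unadjusted p under 0.05).

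**Figure D4:**
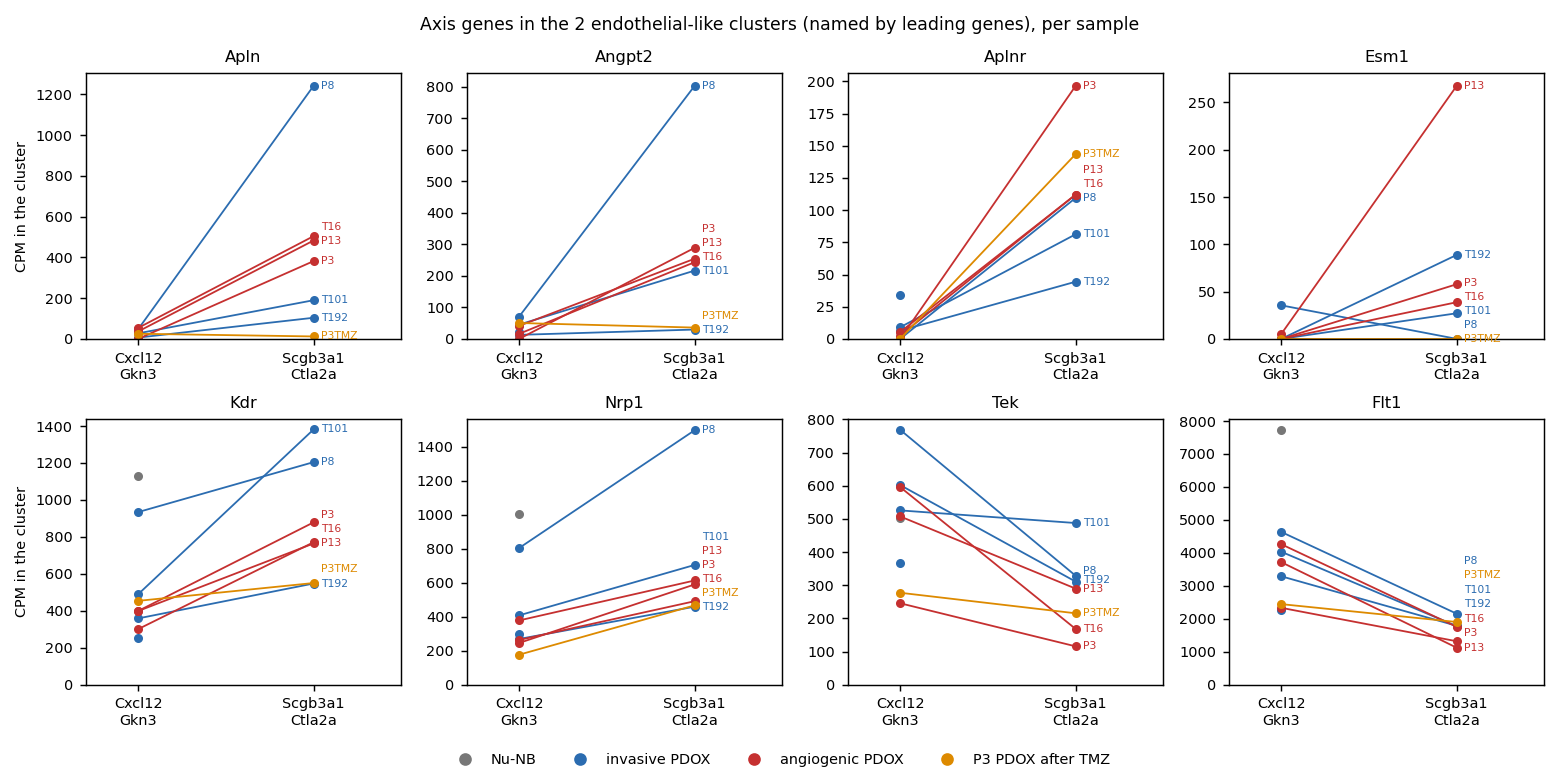
Levels of 8 genes of the axis in CPM (vertical axes) in the 2 endothelial clusters, named by leading genes, with a line joining the points of 1 sample and a single point where a sample had too few cells in the second cluster. Apln is at most 53.7 CPM in the first cluster and 104 to 1241 CPM in the second in the untreated PDOXs shown there, and 11.96 CPM in P3TMZ.

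In 5 of the 7 PDOXs the share of endothelial-like cells with an Apln UMI was higher among cells with an Angpt2 UMI than among the others. Of endothelial-like cells with an Angpt2 UMI, 68% also had one of Apln in P3, 51.7% in T16 and 76.6% in P13, against 6.6%, 12% and 10.6% of the cells without Angpt2. Among the invasive PDOXs the shares were 28.6% against 6.06% in P8 and 30% against 1.23% in T101, while in T192 none of 4 cells with Angpt2 had Apln, against 1.56% of the others, and in T233 no cell had Apln. The cells with Angpt2 were deeper in each of these samples, with medians of 1235, 1330 and 3929.5 UMIs beside 430.5, 612.5 and 1116 UMIs in P3, T16 and P13, and 976 and 814 beside 652 and 474 UMIs in P8 and T101, so the shares are a description only.

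Summed over all cells, whatever their class, Aplnr, Apln, Angpt2, Tie1 and Kdr ran apart more widely than in endothelial-like cells. Aplnr stood at 46.9, 22.5 and 18.0 CPM in P3, T16 and P13, against at most 5.92 CPM in the 4 invasive PDOXs. Apln stood at 92.5, 115 and 82.4 CPM against 2.42 to 21.8 CPM. Angpt2 stood at 69.1, 54.6 and 53.8 CPM against 3.54 to 26.0 CPM. For 5 of the 9 genes tested (Aplnr, Apln, Angpt2, Tie1 and Kdr) every angiogenic PDOX was above every invasive one, as was the case for 5.19% of all 11922 genes. None of the 9 genes, and no gene at all, passed the edgeR test (0% of genes; 902 had an unadjusted p under 0.05), with log2 differences of 3.67 ± 0.64 for Aplnr (edgeR adjusted p = 0.191) and 3.16 ± 0.62 for Apln (edgeR adjusted p = 0.263). Tek at 0.43 ± 0.48 and Flt1 at 0.24 ± 0.34 overlapped between the groups and had the opposite sign to that in endothelial-like cells (edgeR adjusted p = 0.913 and 0.942), and Nrp1 was at -0.09 and Vegfa at -0.52 ± 0.60. DESeq2 called 119 genes (0.998%), Aplnr, Apln, Tie1 and Angpt2 among them (DESeq2 adjusted p = 1.72e-04, 0.00164, 8.50e-04 and 0.0382). Endothelial-like cells made up 18.6% to 30.5% of cells in the angiogenic and 5.98% to 16.9% in the invasive PDOXs, so that in these sums more endothelial cells and more RNA per cell cannot be told apart.

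In the other classes no gene of the axis passed the test between angiogenic and invasive PDOXs. In myeloid-like cells, where 4 of 7054 genes passed (0.0567%), Flt1 had a log2 difference of -1.0 ± 0.42 (edgeR adjusted p = 0.64) and Nrp1 one of -0.58 ± 0.35 (edgeR adjusted p = 0.878). The myeloid-like cells lay in different clusters. One led by Il7r, P2ry12 and Tmem119 (the latter pair known from resident microglia) held 62.5% of them in T16 and 64.4% in P13, but 9.96% in P3 and 4.75% (T233) to 23.1% (T101) in the invasive PDOXs. One led by Ccl6, Cd74 and Itgax held 71% in P3, 25% in T16 and 8.29% in P13, and 52.0% to 79.2% in the invasive PDOXs. Within the second, a choice made after seeing the data, Flt1 was at -0.57 ± 0.43 (edgeR adjusted p = 0.797), where 1 of 1544 genes passed (0.0648%), and within the first, where 1 of 358 did (0.279%), neither gene could be tested. In mural-like cells, where 0 of 1824 genes passed edgeR or DESeq2 and 15 had an unadjusted p under 0.05, Flt1 was at -0.52 and Nrp1 at -0.76. In astrocyte-like cells, where 0 of 5100 genes passed either tool and 105 had an unadjusted p under 0.05, Vegfa was at -0.14 ± 0.69 and Apln at 0.79 ± 0.80. P3 had fewer than 10 astrocyte-like cells and did not enter this fit. Without P8, Vegfa turned to 1.051 (edgeR adjusted p = 0.237), when 116 of 4849 genes were called (2.39%). In OPC-like cells no gene of the axis could be tested.

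The second comparison set the 7 untreated PDOXs against the normal nude brain. Since there was 1 Nu-NB sample, the tests have only the PDOXs from which to estimate the spread, and calls needed an adjusted p of at most 0.01 and at least a 2-fold change, after the study's thresholds. In astrocyte-like cells Vegfa, the main VEGF ligand, stood at 1245 CPM in Nu-NB (721 UMIs, 95% interval 1155 to 1339). In the PDOXs it stood at 701 CPM in P8, 428 CPM in T101, 288 CPM in T16, 246 CPM in P13, 97.5 CPM in T192 and 81.2 CPM in T233. Each of these 6 PDOXs was below the normal brain, and P8, sorted in the same way as Nu-NB, was the nearest. Apln in these cells stood at 152 CPM in Nu-NB (88 UMIs) and at 0 to 45.1 CPM in these PDOXs, the highest again P8. Vegfa and Apln were 2 of the 5 genes of the axis tested in which each of the 6 PDOXs was below Nu-NB, as 17.3% of all genes tested were.

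The fitted log2 differences were -2.10 ± 0.69 for Vegfa and -2.30 ± 0.65 for Apln, and neither passed (edgeR adjusted p = 0.503 for both). No gene of 7683 did with edgeR (0%), while 743 had an unadjusted p under 0.05 and DESeq2 called 5. Without P8, Vegfa came to -2.57 (edgeR adjusted p = 0.0184) and Apln to -2.44 (edgeR adjusted p = 0.0376), neither at or under 0.01, as 11 of 6584 genes then were (0.167%). The fit without P8 set PDOXs sorted by MACS against a brain sorted by FACS, so that tumor and sort cannot be told apart in it. After thinning to 500 UMIs, Vegfa was seen in 37.4% of astrocyte-like cells of Nu-NB, 25.5% of P8, 13.9% of P13, 12.8% of T16, 8.16% of T192, 6.67% of T101 and 0 of 35 cells of T233. Astrocyte-like cells of Nu-NB held 93.6% of all its Vegfa UMIs, against 16.7% to 75.5% in the PDOXs other than P3. Myeloid marker genes summed to 601 CPM in the astrocyte-like cells of Nu-NB and to 739 to 14270 CPM in those of the PDOXs, and their part in the result was not tested. The class also held different clusters in each. Before doublets were left out, one led by Agt had 284 cells in Nu-NB, 263 in P8, 24 in T192 and 8 in T233. One led by Gfap and Cd44 had 0 in Nu-NB and up to 26 (T192) in the PDOXs. Which astrocytes were present and a change within them cannot be told apart.

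Over all cells, Vegfa stood at 661 CPM in Nu-NB and at 18.2 to 169 CPM in the PDOXs, the highest again P8, with a log2 difference of -3.34 ± 0.64 (edgeR adjusted p = 0.189, DESeq2 adjusted p = 0.00921). EdgeR called 0 of 12458 genes (0%; 2305 at an unadjusted p under 0.05) and DESeq2 called 135 (1.08%). Vegfa was the 1 gene of the 8 tested that was below Nu-NB in every PDOX, as 24.3% of all genes were, and 5 of the 8 (Flt1, Tek, Kdr, Angpt2 and Tie1) were above it in every PDOX, as 22.5% of all genes were. The median log2 difference was 2.40 over the 8 genes and 0.13 over all genes tested. Astrocyte-like cells made up 47.9% of the cells of Nu-NB and 0.515% (P3) to 29.3% (P8) of those of the PDOXs, and endothelial-like cells 1.92% and 5.98% to 30.5%, so that in these sums the numbers of cells and the RNA per cell cannot be told apart.

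In myeloid-like cells Flt1 was at the detection limit in the normal brain and had UMIs in every PDOX. It stood at 8.31 CPM in Nu-NB (3 UMIs, 95% interval 1.71 to 24.3). In the invasive PDOXs it stood at 355 CPM in P8, 317 CPM in T192, 285 CPM in T233 and 70.2 CPM in T101, the last on 2 UMIs. In the angiogenic PDOXs it stood at 200.1 CPM in P3, 121 CPM in T16 and 90.2 CPM in P13. All 7 PDOXs were above Nu-NB, as was the case for 13.2% of all 8507 genes tested, and Flt1 was 1 of the 4 genes of the axis tested of which this held. The class held different cells in each, however. It also left out clusters with myeloid markers that stayed unnamed, such as those led by Mrc1 and F13a1 or by Ly6c2. With class by markers of the cell there were 363 myeloid-like cells in T101, 475 in T16, 911 in P13 and 678 in Nu-NB. In the class used here there were 52, 216, 374 and 636, so that its levels and shares describe a part of the myeloid cells. The cluster led by Il7r, P2ry12 and Tmem119 made up 98.9% of the myeloid-like cells of Nu-NB and 4.75% to 64.4% of those of the PDOXs. Within it Flt1 stood at 8.44 CPM in Nu-NB, 72.8 CPM in P13 (18 UMIs), and 23.1 to 230 CPM in the other PDOXs on 1 to 6 UMIs each. In P8 it stood there at 30.6 CPM, against 317 CPM in the cluster led by Ccl6 and 383 CPM in one led by ribosomal protein genes. The cluster led by Ccl6 had 6 cells in Nu-NB, too few for a level.

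The log2 difference of Flt1 over the whole class was 4.96 ± 1.10 and its adjusted p of 0.0400 (edgeR) missed the threshold of 0.01, which 7 genes passed (0.0823%). It passed with DESeq2 (log2 difference 4.88, DESeq2 adjusted p = 5.32e-04), which called 213 genes (2.5%), and with edgeR without P8 (4.84, edgeR adjusted p = 0.00675), when 151 genes were called (1.94%). Within the cluster led by Il7r alone, a choice made after seeing the data, it was 2.79 ± 1.31 and did not pass (edgeR adjusted p = 0.389), where 1 of 1820 genes did (0.0549%). In the sums over the class, a change in which myeloid cells were present and a change within them cannot be told apart. The fit without P8 set PDOXs sorted by MACS against a brain sorted by FACS, so that tumor and sort cannot be told apart in it. Nrp1 stood at 279.6 CPM in Nu-NB, within the PDOX range of 133 to 478 CPM (log2 difference 0.18 ± 0.53, edgeR adjusted p = 0.884). Kdr was low in both, at 2.77 CPM in Nu-NB (1 UMI) and at 0 to 27.5 CPM in the PDOXs (log2 difference 2.58 ± 1.24, edgeR adjusted p = 0.241).

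By cell, Flt1 was seen in 2 of 636 myeloid-like cells of Nu-NB (0.314%), and in 30.6% of cells in T192, 29.1% in P8, 19.4% in T233, 13.9% in P3, 8.56% in P13, 4.17% in T16 and 3.85% in T101. Thinned to 500 UMIs the shares were 0.669% in Nu-NB (2 of 299 cells, 95% interval 0.0811 to 2.40%), 12.7% in P8, 13.6% in T192, 9.75% in T233, 8% in T101 (2 of 25 cells), 5.26% in P3, 4.63% in P13 and 1.54% in T16. The share of T16 was within the interval of Nu-NB. Endothelial markers summed to 38.8 CPM in the myeloid-like cells of Nu-NB, 107 to 246 CPM in the invasive and 276 to 490 CPM in the angiogenic PDOXs, and the part of endothelial RNA in the myeloid Flt1 level was not tested.

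The ratio of Flt1 to Kdr, 2 genes read from the same cells, also differed between classes of 1 sample. There were 21.8 Flt1 UMIs per Kdr UMI in the myeloid-like cells of P8, 29.6 in T192 and 34.9 in T233, beside 4.03, 8.07 and 8.83 in their endothelial-like cells. In P3, T16 and P13 the ratios were 7.29, 5.25 and 6.11 in myeloid-like and 1.84, 3.89 and 2.80 in endothelial-like cells, on 4 to 9 myeloid Kdr UMIs each, and T101 had no myeloid Kdr UMI. Restricted to myeloid-like cells with no UMI of any endothelial marker, a choice made after seeing the data, Flt1 was seen in 24.2% of cells in P8, 26.8% in T192, 15.9% in T233, 10.9% in P3 and 7.09% in P13. In T16 it was seen in 5 such cells (2.60%), in T101 in 1 of 46 (2.17%) and in Nu-NB in 2 of 623 (0.321%), and the log2 difference was 4.66 (edgeR adjusted p = 0.0474).

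**Figure D5:**
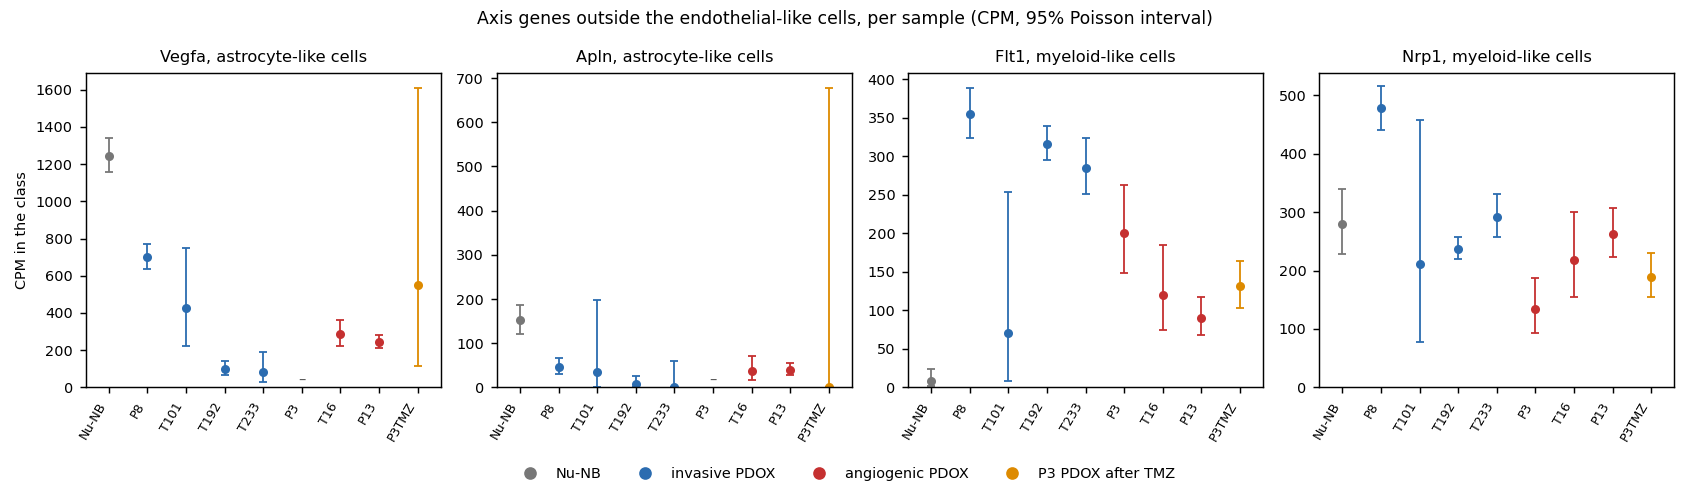
Levels of Vegfa and Apln in astrocyte-like cells and of Flt1 and Nrp1 in myeloid-like cells by sample, in CPM, with exact Poisson 95% intervals and a dash for P3, which had too few astrocyte-like cells. Nu-NB is above each of the 6 PDOXs measured for Vegfa and Apln and below every PDOX for Flt1, while for Nrp1 it lies within the PDOX range.

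In endothelial-like cells the normal brain gave little to compare, with 34 cells and 15911 UMIs. Apln, Angpt2 and Esm1 had 0 UMIs there, which allows up to 188.5 CPM, so that an absence could not be shown at this depth, and the fitted fold changes of these genes are no bounds. Flt1 stood at 7731 CPM in Nu-NB (95% interval 6425 to 9224), above the 1479 to 4028 CPM of the PDOXs, with a log2 difference of -0.86 ± 0.51 (edgeR adjusted p = 0.481). Kdr (1131 CPM) and Nrp1 (1006 CPM) were also above every PDOX on 18 and 16 UMIs, with log2 differences of -0.12 ± 0.60 and -0.28 ± 0.58. With Tie1 they were 4 of the 7 genes tested that were below Nu-NB in every PDOX, as 37.9% of all genes were. The median log2 difference was -0.12 over the 7 genes of the axis tested and 0.56 over all genes tested. No gene of 6243 was called with edgeR (0%), 717 had an unadjusted p under 0.05, and DESeq2 called 2. In mural-like cells 0 of 3561 genes passed with edgeR or DESeq2 (295 had an unadjusted p under 0.05 with edgeR).

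The third comparison set the temozolomide-treated P3 beside the untreated P3, 1 sample each, so that there is no test and the intervals cover counting error only. In endothelial-like cells, 127 in P3TMZ and 237 in P3, Apln and Angpt2 were lower in the treated sample. Apln stood at 16.2 CPM (2 UMIs, 95% interval 1.97 to 58.6) against 321 CPM (66 UMIs, 248 to 408). Angpt2 stood at 40.6 CPM (5 UMIs, 13.2 to 94.6) against 243 CPM (50 UMIs, 181 to 321), a log2 difference of -2.58. Kdr was also lower, at 519 CPM (400 to 663) against 803 CPM (685 to 935), and Flt1 was higher, at 2076 CPM (1830 to 2347) against 1479 CPM (1317 to 1655). Marker sums of these cells also differed between the samples. Endothelial markers summed to 27399 CPM in P3TMZ and 17096 CPM in P3, myeloid markers to 519 and 1634 CPM, and choroid plexus markers to 349 and 1639 CPM. Per endothelial marker UMI there were 0.0758 Flt1 UMIs in P3TMZ and 0.0865 in P3, the opposite order to CPM. The part of these sums in the differences was not tested.

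Those were the 4 of 10 genes whose counting intervals did not overlap, as was so for 2.83% of the 13746 genes with a UMI in either sample. Of genes with at least 20 UMIs in the pair, 4 of 8 were of this kind beside 9.64% of 3484. Esm1 had 0 UMIs in P3TMZ and 10 in P3, and Aplnr stood at 97.3 CPM against 165 CPM, both with overlapping intervals, as had Nrp1, Tek and Tie1. Vegfa had 1 UMI in P3TMZ and 0 in P3 in these cells, and over all cells it stood at 45.2 CPM against 28.7 CPM, with overlapping intervals. The cluster led by Scgb3a1 held 44.9% of the endothelial-like cells in P3TMZ and 76.4% in P3. Within it, Apln had 1 UMI in 57 treated cells and 66 UMIs in 181 untreated cells, and Angpt2 had 3 and 50 UMIs, so the lower levels were also seen inside the cluster. The treated sample was the deeper of the pair, with a median of 875 against 526 UMIs per cell.

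The wider pathway was described by 3 lists in endothelial-like cells, angiogenic against invasive. Of 13 further genes of the axis (such as Pgf, Vegfc, Nrp2 and Angpt1), 4 had enough counts, none passed, and their median log2 difference was -0.31. They were Plxnd1, a semaphorin receptor (1.12 ± 0.53), Ptprb, the endothelial phosphatase that acts on Tek (-0.78 ± 0.31), Foxo1 (-0.35 ± 0.35) and Nrp2 (-0.27 ± 0.35). Of 21 tip cell genes, 11 were tested and 4 rose, with none lower, beside 0.556% of all genes tested that rose. Of the 11, Lamb1 and Nid2 passed the filter on low counts through the angiogenic PDOXs only, and Trp53i11, Lxn, Dll4 and Cotl1 with only 1 or 2 invasive PDOXs at its level. The filter therefore leans to the higher side, and both the count of 4 and the median of 1.36 are descriptions only. The same limit holds for the calls of Lamb1 given below. Those that rose were Lamb1, a laminin chain of the basement membrane (3.27 ± 0.36, edgeR adjusted p = 0.00144), Trp53i11 (2.23 ± 0.49, edgeR adjusted p = 0.0464), Lxn (1.80 ± 0.38, edgeR adjusted p = 0.0396) and Rgcc (1.62 ± 0.33, edgeR adjusted p = 0.0387). Lamb1 remained called without any 1 of the 7 PDOXs (edgeR adjusted p = 0.00469 to 0.0129). Of the other 3, only Trp53i11 and Lxn without P8 and Rgcc without P13 did, and with T192 and T233 summed none did. With at least 500 genes per cell only Lamb1 was called (edgeR adjusted p = 0.00419). Within the cluster led by Scgb3a1 none of the 4 was, Lamb1 being at 1.72 (edgeR adjusted p = 0.283), nor was any in that led by Cxcl12, where only Rgcc could be tested. Dll4, the Notch ligand of tip cells, was at 0.60 ± 0.39 (edgeR adjusted p = 0.544). Of 9 genes of endothelial Notch signaling and quiescence all were tested, none passed, and their median was -0.18. Klf4, a flow-responsive factor, was lower in every angiogenic PDOX than in every invasive one but did not pass (-0.95 ± 0.28, edgeR adjusted p = 0.102).

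Outside the lists, the largest called differences were those of Fscn1, an actin-bundling protein (3.48 ± 0.51, edgeR adjusted p = 0.0184), Tnfrsf11b, the decoy receptor osteoprotegerin (3.41 ± 0.66, edgeR adjusted p = 0.0372), and Exoc3l4, which was at 0 CPM in the invasive PDOXs so that its fold has no bound. The largest lower ones were those of the interferon-induced Gbp5 (-2.40 ± 0.48, edgeR adjusted p = 0.0387) and of the MHC class I genes H2-T23 (-2.34 ± 0.39, edgeR adjusted p = 0.0267) and H2-Q6 (-2.21 ± 0.45, edgeR adjusted p = 0.0387). Without P3 none of these 6 genes was called, Tnfrsf11b then not being tested. Invasive means of Fscn1, Tnfrsf11b and Exoc3l4 were 12.4, 5.04 and 0 CPM, under the filter on low counts (48.6 CPM in at least 3 PDOXs). Tnfrsf11b and Exoc3l4 passed the filter only through the angiogenic PDOXs, so that they had to differ to be tested. The filter leans to the higher side for Fscn1 too, and to the lower side for H2-Q6 (angiogenic mean 23.1 CPM).

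Genes whose pattern was most like that of each gene of the axis were ranked by Pearson's r of log2(CPM + 10) over 68 sums of class and sample (60 for Esm1 and 61 for Aplnr), among 11764 genes. The sums of 1 sample share its library and depth, so r is a description. Tek ran closest to Erg, an endothelial ETS factor (r = 0.966), and Tie1 to the endothelial factor Sox17 (r = 0.936). Aplnr ran closest to Ly75 (r = 0.976), followed by Dll4 (r = 0.943), and Esm1 closest to Dll4 (r = 0.865). Kdr ran closest to AU021092 (r = 0.900) and Flt1 to Slc6a6, a taurine transporter (r = 0.826). The likeness was weaker for Nrp1 (Cr1l, r = 0.764), Vegfa (Asrgl1, r = 0.728), Angpt2 (Thbd, r = 0.725) and Apln (Trim16, r = 0.695).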

How the data were processed

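Drop-seq libraries were sequenced and, per the labels and the submitters' processing notes, processed by the authors with bcl2fastq 2.0 and STAR on mm10 (GRCm38). The deposited files hold raw UMI counts per gene and barcode, 1 file per sample, with no normalization. Only the Nu-NB and P8 files list symbols with 0 UMIs (1025 and 654). A symbol not listed in a file was treated as missing, although in the other 7 files it may have had 0 UMIs. Total counts were 1294068 to 8410580 UMIs per file. Barcodes with under 200 genes or with over 30% of UMIs from mitochondrial genes were dropped, and the 5% with the highest scrublet score in each sample were left out as likely doublets. Cells were clustered with scanpy 1.11.5 and leidenalg 0.10.2 (2000 variable genes, 30 components, 20 neighbors, resolution 1) without the 10 genes and the list genes, and clusters were named from fixed markers. The rule for naming was revised with clusters, but not the levels of the 10 genes, in view. Clusters named for no class stayed unnamed. UMIs were summed per class and sample (at least 10 cells), and CPM was taken over the 12580 symbols listed in all 9 files.

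Sums were tested with edgeR 4.0.16 in R 4.3.3 (quasi-likelihood, TMM, filterByExpr, Benjamini-Hochberg over all genes), with DESeq2 1.42.0 as an alternative. Both were tested on simulated data. For angiogenic against invasive in endothelial-like cells, edgeR called 21.3% of genes given a log2 difference of 1 and 100% of those given 3. Of its 121 calls there, 11 were false. For PDOX against Nu-NB in myeloid-like cells the shares were 0% and 20.5% with edgeR, and 0% and 47% with DESeq2. A gene that did not pass may therefore still differ. Differences in mean share between the groups of samples were given exact permutation p-values. Intervals are exact Poisson or exact binomial at 95%. Groups came from the labels for PDOX, treatment and normal brain, and from the study for angiogenic and invasive growth. The labels call the samples separate, but 1 library stands for each model, so p-values measure the spread between models. Sequences came from RefSeq and gene positions from GRCm38. All 10 genes are named. Of each list the genes past the threshold are named (up to 5 in each direction), outside the lists the 3 with the largest log2 difference in each direction, and for each gene of the axis those most alike, while list genes without a call were named after their values were seen. The 10 genes and the lists were chosen with earlier results of these data known.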

Additional observations from a re-analysis of the deposited data

Results flagged for a closer look

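Levels of the 10 genes were screened for a sample far from the others of its group, in 65 groups of 4 to 7 samples with at least 20 UMIs of the gene, and 11 met the 95% criterion, where chance gives about 1 in 20. In endothelial-like cells these were Nrp1 in P8 at 973.5 CPM (next 547 CPM), Esm1 in P13 at 193.9 CPM (next 48.6 CPM) and Aplnr in P3 at 165.4 CPM (next 81.5 CPM). In mural-like cells they were Vegfa in P13 at 82.54 CPM on 14 UMIs, Angpt2 in P8 at 131.5 CPM on 9 UMIs, and Nrp1 in T192 at 181.9 CPM, which was low among the invasive PDOXs and came from a class where myeloid markers summed to more than mural ones. In the other classes they were Tek in myeloid-like cells of T101 at 70.16 CPM, on 2 UMIs only, and Nrp1 in astrocyte-like cells of T233 at 227.5 CPM on 14 UMIs. Over all cells they were Vegfa in P8 at 169.3 CPM, Tek in T101 at 95.84 CPM (among invasive PDOXs) and Esm1 in P13 at 39.83 CPM. P8 and P13 held 6 of the 11. P8 was also the only PDOX purified by FACS and P13 the deepest sample, and the part of either in these levels was not tested.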

How the results depend on the processing

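Of the log2 differences of single genes recomputed under an alternative, 610 kept their direction and their side of the threshold, 11 gained and 11 lost a call, and 26 changed sign. Those that changed sign were mostly near 0. Angiogenic against invasive in endothelial-like cells, Angpt2 came to -0.13 in the cluster led by Scgb3a1, Kdr to -0.49 in the cluster led by Cxcl12 and -0.32 in that led by Scgb3a1, and Nrp1 to 0.0786 with no filter on low counts. In astrocyte-like cells Flt1 came to 0.18 with no filter and 0.48 with T192 and T233 summed. PDOX against Nu-NB, Nrp1 came to 0.16 in endothelial-like and -0.25 in myeloid-like cells with class by markers of the cell and -0.77 in the myeloid cluster led by Il7r, and to 0.55 in astrocyte-like cells with at least 500 genes per cell, and with no doublet step Tek came to -0.0850 in endothelial-like and Flt1 to -0.31 in mural-like cells. Leaving out 1 PDOX at a time gave, for angiogenic against invasive, Nrp1 -0.26 to 0.37 in endothelial-like cells and -0.19 to 0.0680 in all cells, Flt1 -0.49 to 0.78 and Vegfa -0.52 to 1.051 in astrocyte-like cells, and Vegfa -0.82 to 0.27 in all cells. For PDOX against Nu-NB it gave Kdr -0.36 to 0.0661 in endothelial-like cells and Nrp1 -0.0044 to 0.29 in myeloid-like cells. The causes were not tested.

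The number of genes called, angiogenic against invasive, moved in endothelial-like cells from 47 to 138 with DESeq2, 351 with no filter on low counts, 25 with no doublet step, 14 with at least 500 genes, 89 with class by markers, 4 with T192 and T233 summed, 0 in the cluster led by Cxcl12 and 3 in that led by Scgb3a1. In myeloid-like cells it moved from 4 to 10 (DESeq2), 51 (no filter), 0 (500 genes), 12 (class by markers) 2 (T192 and T233 summed) and 1 in each of the clusters led by Il7r and Ccl6. In mural-like cells it moved from 0 to 1 (no filter) and 5 (class by markers), in astrocyte-like cells to 21 (no filter), in OPC-like cells to 1 (DESeq2), 77 (no filter) and 1 (class by markers), and in all cells to 119 (DESeq2). PDOX against Nu-NB, it moved to 2 in endothelial-like, 5 in astrocyte-like and 135 in all cells (DESeq2), and in myeloid-like cells from 7 to 213 (DESeq2), 16 (no filter), 2 (500 genes), 1 (class by markers) and 1 (cluster led by Il7r). Leaving out 1 PDOX at a time gave 2 to 35 calls in endothelial-like, 0 to 20 in myeloid-like, 0 to 116 in astrocyte-like, 0 to 2 in OPC-like and 0 to 3 in all cells for angiogenic against invasive. It gave 2 to 151 in myeloid-like, 0 to 11 in astrocyte-like and 0 to 4 in all cells against Nu-NB. The highest counts in astrocyte-like cells and in myeloid-like cells against Nu-NB were those without P8.

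The mean differences in share passed the threshold without thinning, where depth was not matched, at 13.3 points for Apln and 8.22 points for Angpt2. Leaving out 1 PDOX gave 6.84 to 8.94, 4.77 to 7.34 and, for Esm1, 0.415 to 1.13 points. The number of genes with intervals apart between P3TMZ and P3 was 4 under each of 3 cell choices added after seeing the data, beside 2.35% to 2.83% of all genes with a UMI. At 1000 UMIs neither Apln (12.7 points) nor Angpt2 (9.36 points) passed, and Esm1 with T233 taken as 0, added after seeing the data, gave 1.01 points. No paired analysis was possible because the labels give no replicate numbers, those used here only name the samples, and the groups of 1 sample share only 1 number with the PDOXs. Depth limits Esm1 and Aplnr in invasive PDOXs and every endothelial level of Nu-NB.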
